A study of Mus musculus with 8 samples.

Results

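Mitochondrial ribosomal proteins were described in mouse regulatory T cells with and without Raptor, the subunit that defines the kinase complex mTORC1. They were taken as every gene whose symbol on the array starts with Mrpl or Mrps followed by a digit, with pseudogenes and probe sets that list several genes left out. This gave 73 genes of 17097 on the array, 46 named for the large subunit (Mrpl) and 27 for the small subunit (Mrps). They were read by 129 probe sets, and each gene was represented by its brightest probe set, judged by the mean of the 8 arrays, which was the only one for 35 genes and 1 of up to 4 for the other 38. No measured difference between the groups entered this rule, but the genes were chosen with earlier results of these data known.

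Each array held RNA of CD4+CD25+ cells sorted from spleen and peripheral lymph nodes of C57Bl/6J mice and used without treatment. There were 4 samples from RaptorKO mice, in which a Cre under the Cd4 promoter deletes a floxed Raptor gene, and 4 from WT mice. Cd4-driven Cre acts in T cells generally and not in regulatory T cells alone, and the labels do not give the age of the mice. Nor do they say that each sample was a mouse of its own, so the p-values rest on a spread between samples that could be technical in part. Values are log2 intensities made with robust multi-array averaging (RMA), and a change is the RaptorKO mean minus the WT mean on that log2 scale.

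The mitochondrial ribosome translates the few proteins that mitochondrial DNA encodes, all of them subunits of the respiratory chain and ATP synthase. Its proteins are encoded in the nucleus, made in the cytosol and imported, and its large subunit joins amino acids while its small subunit reads the messenger RNA. Some of the proteins descend from the bacterial ribosome and others are found in mitochondrial ribosomes only. mTORC1 is known from other mammalian cells to promote the translation of mRNAs for mitochondrial ribosomal proteins, a step that RNA arrays do not measure.

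The targeted gene, Rptor, read 6.63, 6.47, 6.50 and 6.95 in RaptorKO samples 1 to 4, against 6.83, 6.85, 7.03 and 6.75 in WT samples 1 to 4. One RaptorKO sample, replicate 4, lay above 3 of the 4 WT samples, and the change of -0.22 did not pass the test (limma, Benjamini-Hochberg adjusted p = 0.491). Where the probes lie relative to the deleted part is not stated in the labels, so they do not check the genotype labels. The 5 regulatory T cell markers Foxp3, Il2ra, Ctla4, Ikzf2 and Tnfrsf18 averaged 10.50 to 10.64 in RaptorKO samples and 10.45 to 10.60 in WT samples. This average covers opposite changes. Ctla4 was lower in every RaptorKO sample than in any WT sample (change -0.32, limma adjusted p = 0.169). Ikzf2 was higher in every RaptorKO sample (change 0.21, limma adjusted p = 0.342), and the groups overlapped for the others. In bulk RNA, fewer cells of a type and less RNA per cell cannot be told apart. Replicates 1 and 2 of both groups differed from replicates 3 and 4 in sex-linked transcripts. Xist, which silences the second X chromosome of female cells, read 10.88 to 11.18 in replicates 1 and 2 and 5.04 to 5.62 in replicates 3 and 4, while the Y-linked Eif2s3y read 2.92 to 3.36 in replicates 1 and 2 and 7.71 to 8.19 in replicates 3 and 4. The medians of the gene lists are therefore also given within these sets of replicates.

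No mitochondrial ribosomal protein transcript passed the test between RaptorKO and WT cells. All 73 were bright enough to be tested, and of them 0 were called higher and 0 lower by limma at a Benjamini-Hochberg adjusted p under 0.05 over 11413 genes. Over all genes tested, 0.824% were called higher and 1.14% lower. The lowest adjusted p among the 73 was 0.28, that of Mrps6. At an unadjusted p under 0.05, 2 were higher and 3 lower, which is 6.85% of the 73, against 13.0% of all genes tested. RaptorKO and WT samples did not overlap for 1 gene that lay higher in RaptorKO cells, Mrpl23, and for 1 that lay lower, Mrps7. Over all genes tested, 3.73% had RaptorKO samples all above WT samples and 5.09% all below.

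The estimates were close to 0, and their intervals bound the size of the changes. The median change of the 73 genes was -0.048, with 27 positive and 46 negative and a range of -0.33 to 0.32. The median over all genes tested was -0.0092. For 68 of the 73 genes, the 95% interval of the change lay within a 1.5-fold difference in either direction, and for 68 it held 0. The exceptions to the 1.5-fold bound were Mrpl10, Mrpl23, Mrpl36, Mrpl58 and Mrps6, and the outermost bounds were -0.62 for Mrpl10 and 0.61 for Mrpl23. The number of arrays limits this precision.

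**Figure D1:**
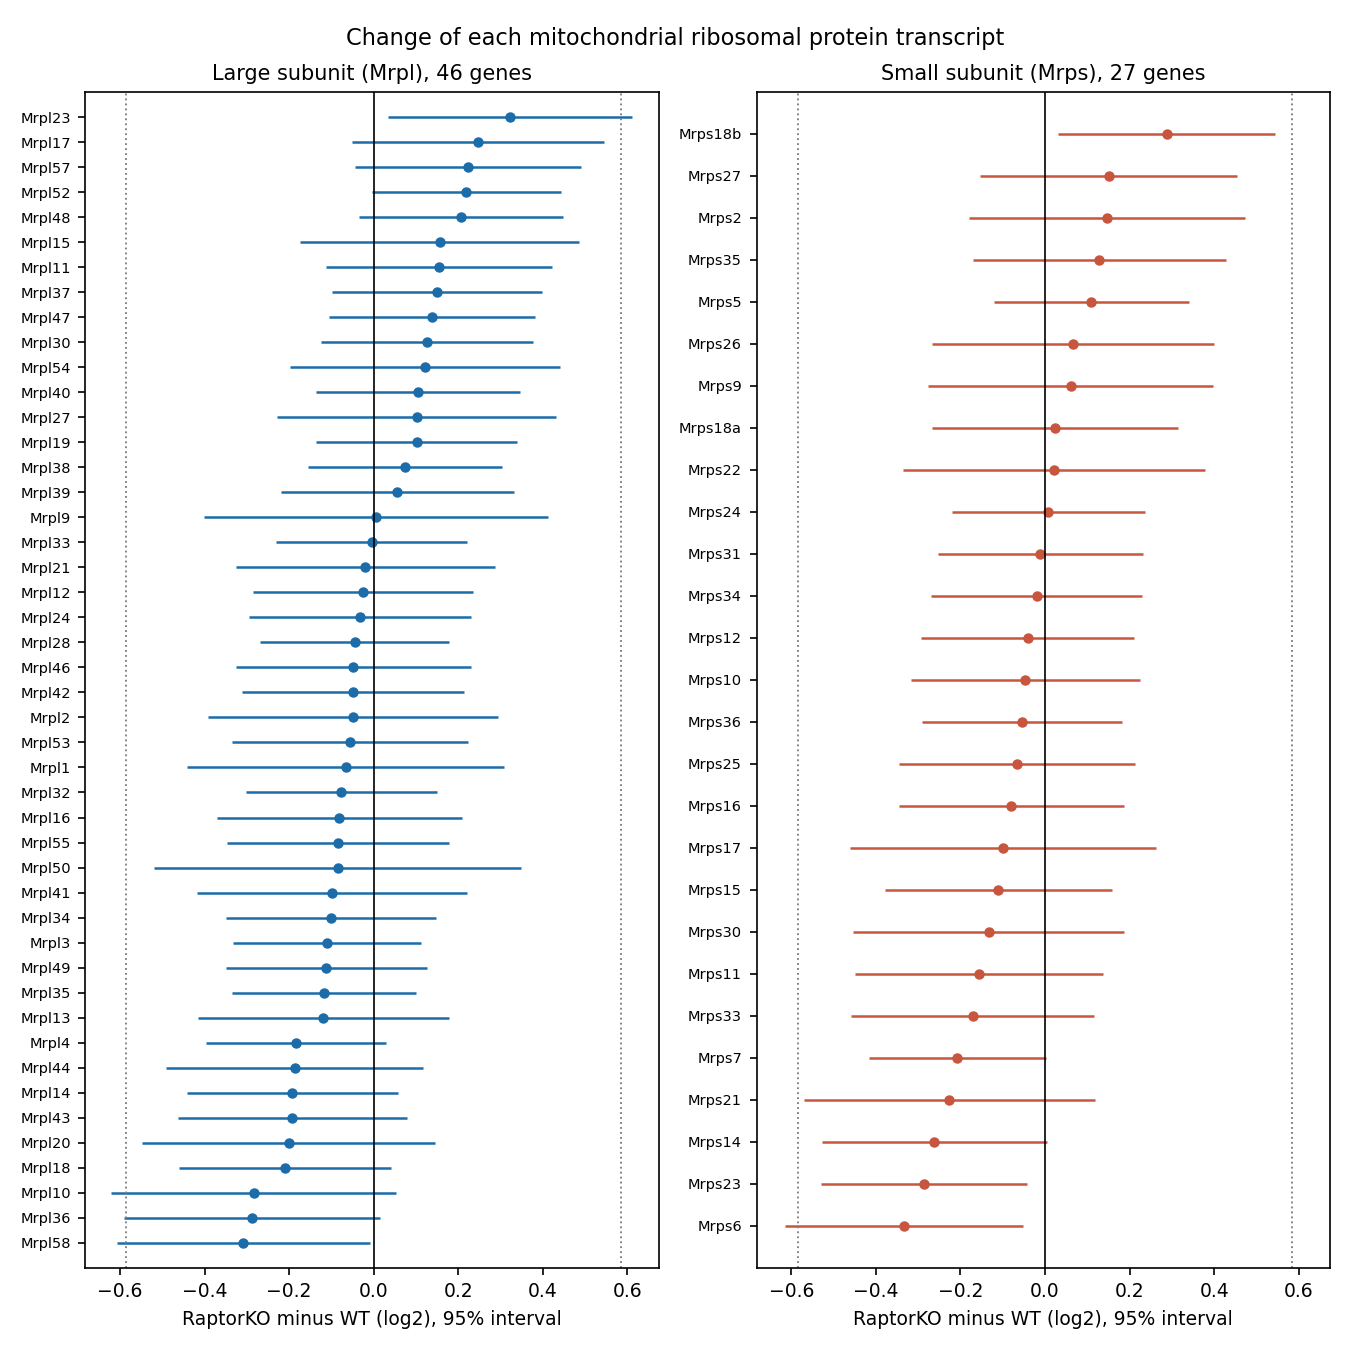
Change of each mitochondrial ribosomal protein transcript, RaptorKO minus WT in log2 units, with its 95% interval from limma, 4 samples a group; dotted lines mark a 1.5-fold difference. The 73 estimates lie between -0.33 and 0.32, and 68 intervals hold 0.

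Large and small subunits had close medians. The median change was -0.048 for the 46 large-subunit genes, 17 of them positive, and -0.046 for the 27 small-subunit genes, 10 of them positive. The symbol does not always give the place in the solved ribosome. Mrps30 and Mrps18a sit in the large subunit, and Mrps36 is now known as a subunit of the oxoglutarate dehydrogenase complex. With these genes placed so, the medians were -0.048 for 48 large-subunit genes and -0.044 for 24 small-subunit genes. The 45 genes with a bacterial counterpart had a median of -0.049, with 15 positive, and the 25 found in mitochondrial ribosomes only had a median of -0.020, with 11 positive. The other 3, Mrpl57, Mrpl58 and Mrps36, were put in neither class.

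Among large-subunit genes, Mrpl23 had the largest positive change. Its product lies beside the exit of the tunnel through which the new protein leaves the ribosome. It read 9.002, 9.28, 8.81 and 8.82 in RaptorKO samples 1 to 4, against 8.59, 8.44, 8.79 and 8.80 in WT samples 1 to 4. All 4 RaptorKO samples lay above all 4 WT samples, but replicates 3 and 4 of the groups were separated by little. The change was 0.32 (SE 0.13), with a limma adjusted p of 0.31 over all genes. Replicates 1 and 2 gave a change of 0.63, and replicates 3 and 4 gave 0.018.

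Mrpl52, a protein of mitochondrial ribosomes with no bacterial counterpart, read 11.37, 11.48, 11.25 and 11.26 in RaptorKO samples, against 11.05, 11.02, 11.27 and 11.15 in WT samples. WT replicate 3 lay above 2 of the RaptorKO samples, and the change was 0.22 (SE 0.10, limma adjusted p = 0.39). The other large-subunit genes among the 8 largest positive changes were Mrpl17, Mrpl57, Mrpl48, Mrpl15 and Mrpl11, with changes of 0.15 to 0.25 and overlapping groups. Mrpl11 belongs to the base of the stalk that receives the translation factors, and its change was 0.15 (SE 0.12, limma adjusted p = 0.692).

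Mrpl58, also known as ICT1, is a peptidyl-tRNA hydrolase that frees stalled ribosomes and has become part of the large subunit. It read 7.89, 7.69, 7.40 and 7.53 in RaptorKO samples, against 7.91, 7.64, 8.08 and 8.11 in WT samples. In replicates 1 and 2 the groups overlapped, whereas in replicates 3 and 4 both RaptorKO samples lay below both WT samples. The change was -0.31 (SE 0.14, limma adjusted p = 0.363) over all samples and -0.63 within replicates 3 and 4, where its adjusted p of 0.0772 was the lowest of any of the 73 genes.

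Mrpl36, whose bacterial counterpart is a small zinc-binding protein of the large subunit, read 7.98, 8.27, 7.60 and 7.78 in RaptorKO samples, against 8.28, 8.06, 8.22 and 8.22 in WT samples. Here too RaptorKO replicates 3 and 4 were the lowest of the 8 samples. The change was -0.29 (SE 0.14, limma adjusted p = 0.414). Mrpl10, which anchors the stalk, read 6.13, 6.70, 6.56 and 6.87 in RaptorKO samples, against 6.95, 6.60, 6.95 and 6.90 in WT samples. WT replicates 1, 3 and 4 lay close together and above every RaptorKO sample, and WT replicate 2 lay among the RaptorKO samples, with a change of -0.28 (SE 0.15, limma adjusted p = 0.492). Mrpl12, the stalk protein that also binds the mitochondrial RNA polymerase, had a change of -0.025 (SE 0.12, limma adjusted p = 0.963).

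Among small-subunit genes, Mrps18b had the largest positive change. It is 1 of the paralogs that share an ancestor with the bacterial protein S18, and it read 7.95, 8.18, 7.77 and 8.04 in RaptorKO samples, against 7.82, 7.55, 7.59 and 7.83 in WT samples. RaptorKO replicate 3 lay below 2 WT samples. The change was 0.29 (SE 0.12, limma adjusted p = 0.31), and it was positive within both sets, 0.38 in replicates 1 and 2 and 0.20 in replicates 3 and 4. Its paralog Mrps18a had a change of 0.023 (SE 0.13, limma adjusted p = 0.97). Mrps18c was not among the 73 genes and was not analysed here.

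Mrps6, whose bacterial counterpart binds the small-subunit RNA as a pair with S18, had the largest negative change. It read 8.13, 8.71, 8.43 and 8.40 in RaptorKO samples, against 8.94, 8.74, 8.67 and 8.65 in WT samples. RaptorKO replicate 1 was the lowest of all, and RaptorKO replicate 2 lay within the range of the WT samples. The change was -0.33 (SE 0.13, limma adjusted p = 0.28), -0.42 within replicates 1 and 2 and -0.25 within replicates 3 and 4.

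Mrps7, whose bacterial counterpart organises the head of the small subunit, read 7.88, 7.79, 7.82 and 7.92 in RaptorKO samples, against 8.07, 8.20, 8.03 and 7.94 in WT samples. The RaptorKO samples lay close together, and the lowest WT sample was only just above the highest of them. The change was -0.21 (SE 0.096, limma adjusted p = 0.388). Mrps23, found in mitochondrial ribosomes only, read 6.97, 6.92, 6.69 and 6.76 in RaptorKO samples, against 7.13, 6.92, 7.28 and 7.17 in WT samples. RaptorKO replicates 3 and 4 were the lowest, and WT replicate 2 lay among the RaptorKO samples. The change was -0.29 (SE 0.11, limma adjusted p = 0.282). Mrps14, Mrps21 and the large-subunit gene Mrpl18, all with bacterial counterparts, made up the rest of the 8 largest negative changes, at -0.26, -0.23 and -0.21. Mrps36 had a change of -0.055 (SE 0.11, limma adjusted p = 0.905).

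**Figure D2:**
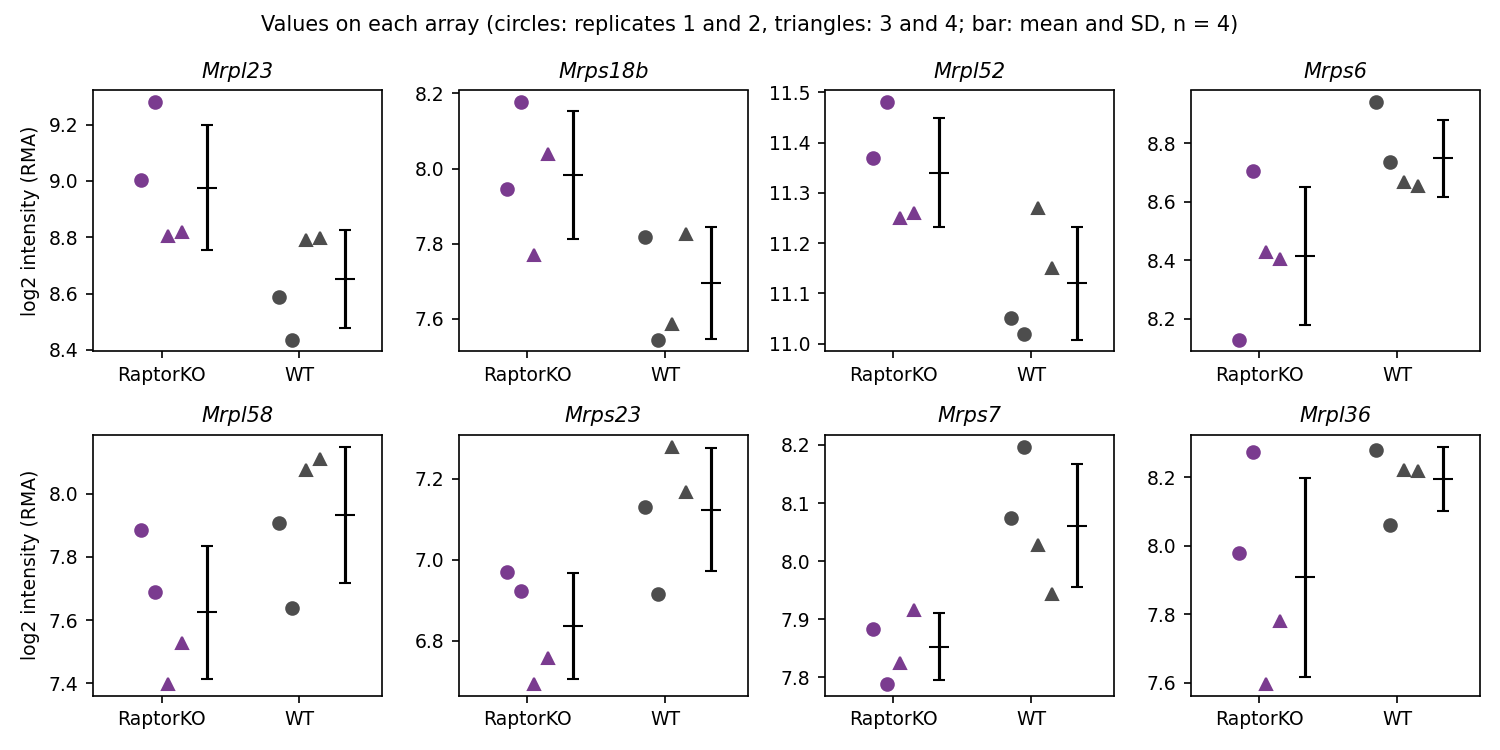
Log2 intensity of 8 mitochondrial ribosomal protein genes in each sample, RaptorKO left of WT, with the mean and SD of the 4 samples of a group; circles are replicates 1 and 2, triangles replicates 3 and 4. The groups do not overlap for Mrpl23 and Mrps7, and no gene passed the test.

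Several probe sets of 1 gene gave a further look at how firm a single value is. Of the 129 probe sets, 122 passed the filter, and tested on their own 0 were called by limma. The lowest adjusted p was 0.234, of a dimmer probe set of Mrpl38, a large-subunit protein of mitochondrial ribosomes only. That probe set averaged 6.04 in RaptorKO samples and 5.68 in WT samples, a change of 0.36, whereas the brightest one of Mrpl38 had a change of 0.075. Of 33 genes with at least 2 passing probe sets, 16 had changes of both signs and 17 of a single sign. The widest such gap was at Mrpl57, with 0.22 at its brighter probe set and -0.37 at its dimmer one.

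The direction of the small changes differed between the sets of replicates. Within replicates 1 and 2, 53 of the 73 genes (72.6%) had a positive change, with a median of 0.11, and within replicates 3 and 4, 59 had a negative one and 14 (19.2%) a positive one, with a median of -0.19. Over all genes tested, 53.6% were positive in replicates 1 and 2, with a median of 0.021, and 43.3% in replicates 3 and 4, with a median of -0.041. Both subunits showed it. The large-subunit median was 0.085 in replicates 1 and 2, with 33 of 46 positive, and -0.18 in replicates 3 and 4, with 10 positive. The small-subunit median was 0.11 in replicates 1 and 2, with 20 of 27 positive, and -0.20 in replicates 3 and 4, with 4 positive. With 2 samples a group in a set, 0 of the 73 genes were called by limma in either, while 0.0789% of all genes tested were called in replicates 1 and 2 and 0.745% in replicates 3 and 4.

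Gene by gene, 41 of the 73 (56.2%) were positive in replicates 1 and 2 and negative in replicates 3 and 4, against 30.1% of all genes tested. Another 12 were positive in both sets, among them Mrpl23, Mrpl48, Mrpl52, Mrps18b and Mrps2, and 18 were negative in both, among them Mrpl10, Mrpl18, Mrps6, Mrps7 and Mrps14. Mrpl21 and Mrpl38 alone were negative in replicates 1 and 2 and positive in replicates 3 and 4. For 10 genes (13.7%), both RaptorKO samples lay above both WT samples in replicates 1 and 2 and below both in replicates 3 and 4, a pattern found in 5.38% of all genes tested. These were Mrpl2, Mrpl12, Mrpl41, Mrpl50, Mrpl54, Mrps16, Mrps25, Mrps26, Mrps30 and Mrps34.

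Mrps30, which despite its symbol lies in the large subunit, is an example. It read 7.51, 7.36, 6.98 and 7.01 in RaptorKO samples 1 to 4, against 7.35, 7.06, 7.45 and 7.53 in WT samples 1 to 4. RaptorKO samples were above WT samples in replicates 1 and 2, with a change of 0.23, and below them in replicates 3 and 4, with a change of -0.50. Mrpl2, whose bacterial counterpart lies near the centre where peptide bonds form, read 7.36, 7.38, 7.11 and 6.84 in RaptorKO samples, against 7.33, 6.83, 7.42 and 7.31 in WT samples. Its change over all samples was -0.049, made of 0.29 in replicates 1 and 2 and -0.39 in replicates 3 and 4.

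The difference between the sets was tested for each gene as an interaction of genotype and replicate set, and it passed for 0 of the 73 genes and for 0 of all genes tested (limma, Benjamini-Hochberg adjusted p over 11413 genes). The lowest adjusted p among the 73 was 0.334, shared by Mrps30 and Mrpl54, with the change in replicates 3 and 4 lower than in replicates 1 and 2 by 0.73 and 0.70. At an unadjusted p under 0.05 there were 15 of the 73 genes (20.5%), against 11.4% of all genes tested, and all 15 were lower in replicates 3 and 4. The interaction was negative for 64 of the 73 genes, against 61.2% of all genes tested. Its median was -0.30 for the 73 and -0.091 for all genes.

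**Figure D3:**
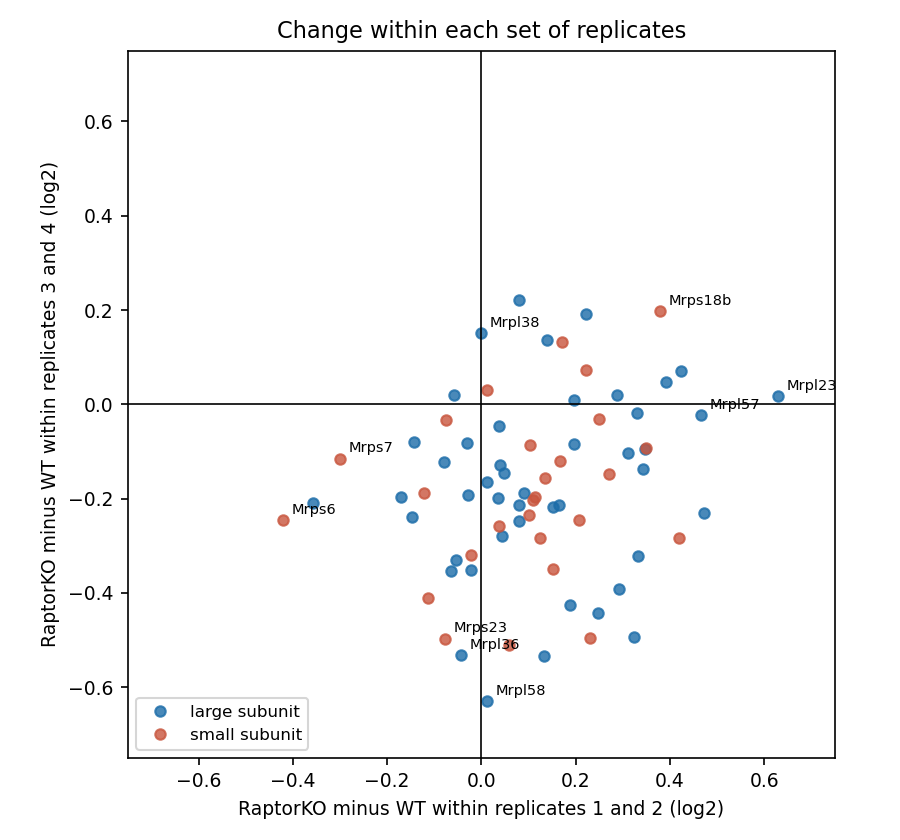
Change of each of the 73 genes within replicates 3 and 4 against that within replicates 1 and 2, RaptorKO minus WT on the log2 scale, 2 samples a group in each set. Of the points, 41 lie at the lower right, positive in replicates 1 and 2 and negative in replicates 3 and 4.

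Sample by sample, the RaptorKO group was the more spread. After each gene was centred on its mean over 8 arrays, the median of the 73 genes was 0.026, 0.17, -0.14 and -0.11 in RaptorKO samples 1 to 4, against 0.055, -0.087, 0.056 and 0.038 in WT samples 1 to 4. RaptorKO replicate 2 was the highest of the 8 samples and RaptorKO replicate 3 the lowest, and among WT samples replicate 2 alone was below 0. The same medians over all genes tested were -0.0023, 0.050, -0.047 and -0.0079 in RaptorKO samples and 0.021, -0.018, 0.017 and 0.013 in WT samples. The arrays' 75th percentiles were 6.72, 6.80, 6.67 and 6.68 in RaptorKO samples, against 6.73, 6.67, 6.73 and 6.76 in WT samples. RaptorKO replicate 2 was the highest in this too, and WT replicate 2 and RaptorKO replicates 3 and 4 were the lowest. What part this has in the medians of the 73 genes within the sets was not tested. Without RaptorKO replicate 3, the median change of the 73 genes was 0.0068 with 39 positive, and without RaptorKO replicate 2 it was -0.097 with 21 positive. The median SD of the 73 genes was 0.21 in RaptorKO samples and 0.14 in WT samples, beside 0.18 and 0.14 for all genes tested.

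Markers of other cells also differed between these samples. Of 8 macrophage markers on the array (Csf1r, Cd68, Adgre1, C1qa, C1qb, C1qc, Mrc1 and Vcam1), 7 were tested, all with a positive change and 0 called by limma, and Adgre1 was under the array's 40th percentile in every sample. The 8 averaged 5.42, 5.56, 6.22 and 6.22 in RaptorKO samples 1 to 4, against 4.93, 5.16, 5.91 and 5.95 in WT samples 1 to 4. Replicates 3 and 4 were thus higher than replicates 1 and 2 in both groups. Cd8a and Cd8b1, which mark CD8 T cells, averaged 6.40, 7.03, 6.18 and 6.08 in RaptorKO samples, against 6.32, 8.07, 7.31 and 7.58 in WT samples. Over all samples 0 of the 2 were called by limma, and within replicates 3 and 4 both were called lower, with changes of -1.68 for Cd8a and -0.95 for Cd8b1. That is the set in which the ribosomal genes had a negative median. Within replicates 1 and 2, where the ribosomal median was 0.11, the changes were also negative, -0.39 for Cd8a and -0.58 for Cd8b1. WT replicate 2 was the highest of the 8 samples in these markers and the lowest WT sample in the ribosomal genes. It was also the highest of the 8 in the averages of the B cell and of the NK cell markers. The 5 T cell markers Cd3e, Cd3d, Cd3g, Cd4 and Cd5 averaged 10.50 to 10.64 in RaptorKO samples and 10.66 to 10.87 in WT samples, without overlap and with 0 called by limma. All 5 changes were negative, from -0.067 for Cd3e to -0.48 for Cd5, but the groups were apart only for Cd4 and Cd5. Some other marker lists also differed between the sets of replicates, with 0 called by limma in any of them. Plasma cell, granulocyte and dendritic cell markers were, like the ribosomal genes, positive in replicates 1 and 2 and negative in replicates 3 and 4. Jchain of plasma cells had a change of 1.68 in replicates 1 and 2 and -0.11 in replicates 3 and 4, and it read 5.67, 6.09, 5.604 and 5.37 in RaptorKO samples, against 3.96, 4.43, 5.41 and 5.78 in WT samples. The median change in the same sets was 0.68 and -0.40 for 2 tested granulocyte markers and 0.48 and -0.026 for 1 of dendritic cells. For red cells it was 0.86 and 0.17 over 2 markers that went opposite ways. Hba-a1 had changes of 1.84 and 0.37 in these sets, and Alas2 had -0.13 and -0.027. Their average was 6.89 and 7.25 in RaptorKO replicates 1 and 2, against 6.04 and 6.39 in WT replicates 1 and 2, without overlap. For 3 B cell markers the median change was 0.17 and 0.29. Cd79a and Pax5 were positive in both sets, and Cd79b was negative in both, at -0.026 and -0.33. The NK cell markers were too dim to be tested, at averages of 4.15 to 4.61 in RaptorKO samples and 4.27 to 4.77 in WT samples. The part of any marker list in the results was not tested.

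**Figure D4:**
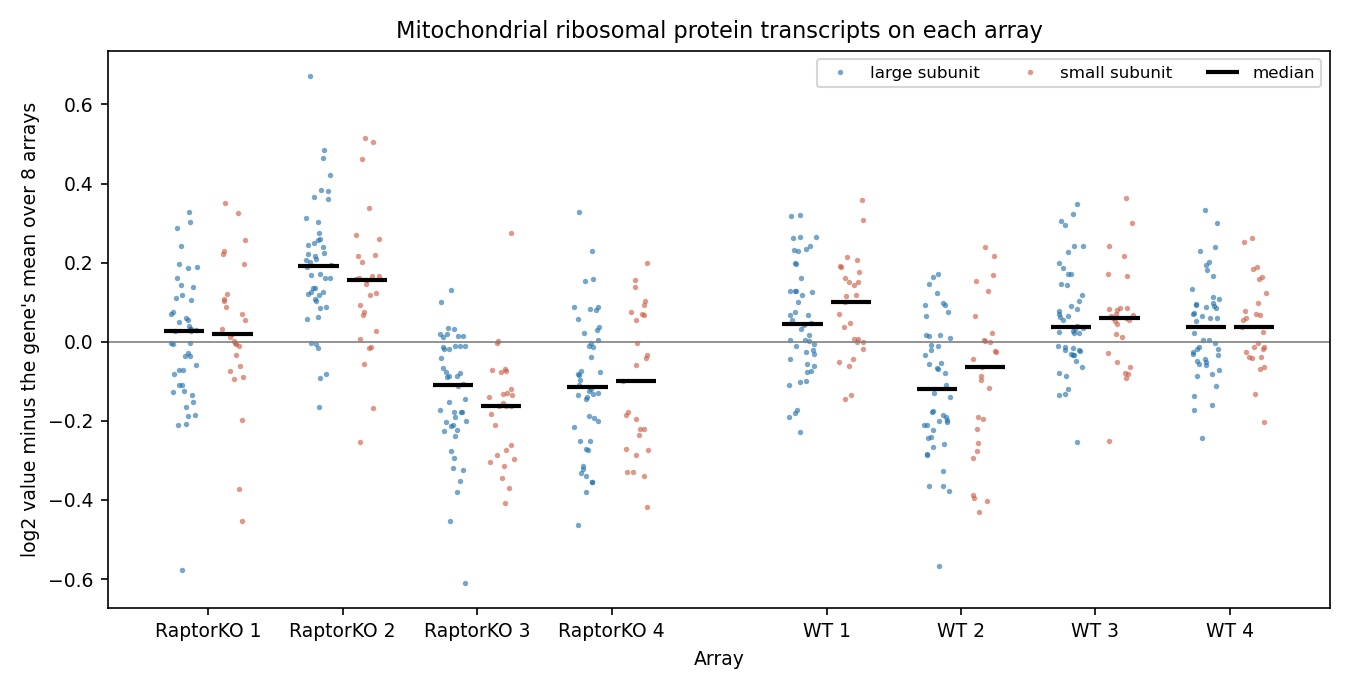
Each of the 73 genes in each sample as its log2 value minus the gene's mean over 8 arrays, RaptorKO samples left and WT samples right, large subunit in blue and small subunit in red, with black bars at the medians. Both subunits are highest in RaptorKO replicate 2 and lowest, or near the lowest, in RaptorKO replicates 3 and 4 and WT replicate 2.

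The 73 transcripts varied together from sample to sample. With each gene centred within its group, the median Pearson correlation over the 8 samples was 0.428 between pairs of the 73 genes, of which 83.0% were positive. It was 0.442 within the large subunit, 0.383 within the small subunit and 0.427 between them. All pairs share the same 8 arrays, and the median over all genes tested was 0.038. Subunits of the respiratory chain and ATP synthase had a median of 0.526 among themselves and 0.47 with the mitochondrial ribosomal genes, and cytosolic ribosomal proteins had 0.212 among themselves and 0.302 with them. The genes closest to the mean of the other 72 were Mrpl36 (r = 0.966), Mrpl27 (r = 0.929) and Mrpl23 (r = 0.908). At the other end were Mrpl38 (r = -0.729), Mrps7 (r = -0.563) and Mrps11 (r = -0.041).

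The genes that work with the mitochondrial ribosome gave few large values and no call. Of the 4 tested structural subunits without an Mrpl or Mrps symbol, Dap3, Chchd1, Ptcd3 and Gadd45gip1, 0 were called and the median change was -0.031, with 0.21 in replicates 1 and 2 and -0.29 in replicates 3 and 4. Dap3, the GTP-binding protein of the small subunit, had a change of -0.16 (SE 0.12, limma adjusted p = 0.675). Of 22 tested genes for ribosome assembly and rRNA handling, 0 were called and 10 were positive, with a median of -0.041. The largest was Mrm1, a methyltransferase of the large ribosomal RNA. It read 7.48, 7.03, 7.11 and 6.61 in RaptorKO samples, against 6.41, 6.57, 6.32 and 6.65 in WT samples. RaptorKO samples 1 to 3 were the highest, WT replicate 4 lay just above RaptorKO replicate 4, and the change of 0.57 (SE 0.16) had a limma adjusted p of 0.12.

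Translation factors and tRNA synthetases were likewise without a call by limma. Of 10 tested mitochondrial translation factors, 5 were positive, with a median of -0.039. The lowest p were those of Oxa1l, the insertase that places new proteins into the inner membrane, with a change of -0.25 (SE 0.12), and of Tsfm, an elongation factor, with 0.27 (SE 0.17). Of 17 tested genes for charging mitochondrial tRNAs, 10 were positive, with a median of 0.036. Gatb, a subunit of the amidotransferase that makes glutaminyl-tRNA, had a change of 0.34 (SE 0.15), and Wars2, the tryptophanyl-tRNA synthetase, had 0.20 (SE 0.098).

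The larger families beside the mitochondrial ribosome also had 0 calls by limma. Of 69 respiratory chain and ATP synthase subunits encoded in the nucleus, 14 were positive, with a median change of -0.065, made of 0.047 in replicates 1 and 2 and -0.22 in replicates 3 and 4. Ndufa11 and Ndufs1, both of complex I, had the lowest p, with changes of -0.35 (SE 0.14) and -0.25 (SE 0.10). Of 66 cytosolic ribosomal proteins, 57 were positive, with a median of 0.061, made of 0.096 and 0.032 in the same sets. Rpl12 and Rpl36a had the lowest p, with changes of 0.28 (SE 0.099) and 0.23 (SE 0.097). Of 9 tested chaperones and proteases of mitochondria, 5 were positive with a median of 0.033, and Hspa9, which pulls imported proteins into the matrix, and the protease subunit Clpp had changes of 0.30 (SE 0.098) and 0.28 (SE 0.093). No mitochondrially encoded protein was among the genes tested here.

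**Figure D5:**
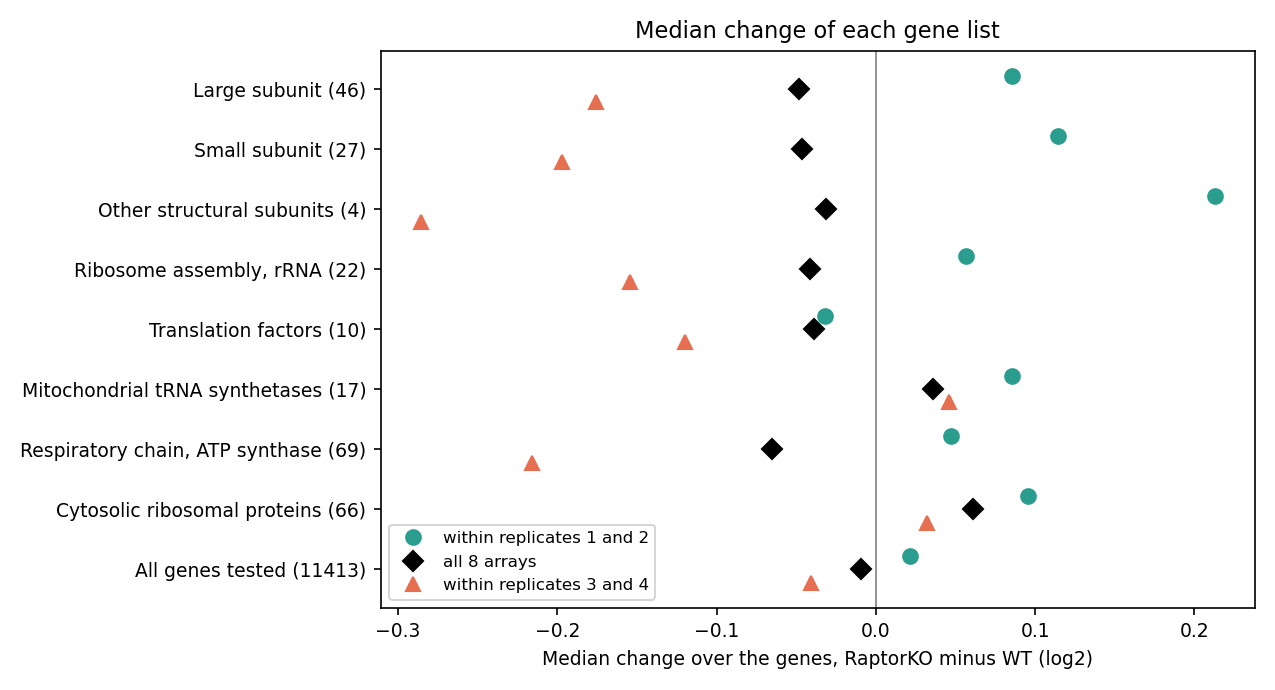
Median change of each gene list, RaptorKO minus WT on the log2 scale, over all 8 arrays (diamonds), within replicates 1 and 2 (circles) and within replicates 3 and 4 (triangles), with the number of genes tested in brackets. Both mitochondrial ribosome subunits and the respiratory chain lie right of 0 in replicates 1 and 2 and left of it in replicates 3 and 4, while cytosolic ribosomal proteins lie right of 0 in both.

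The promoters of the 73 genes were read for motifs of factors that act on nuclear genes for mitochondria. Whether these motifs bear on the shared variation was not tested. RefSeq windows of GRCm38.p6, from 250 bases before to 50 bases after each start, were found for 65 of the 73 genes. Each motif was sought on both strands, as GCGCATGC for NRF1, CCGGAAG for the ETS family that holds GABPA, AAGATGGC for YY1, CACGTG for the E-box bound by MYC, and CAAGGTCA for the estrogen-related receptors (ERR). The following windows, of 100 bases before the start, show matches to each in capitals. Mrpl32 (minus strand, chr13:14613038-14613137) held NRF1 motifs on both strands, and the first run of capitals is a pair of them that overlap. Mrpl36 (plus strand, chr13:73330909-73331008) held an E-box and a YY1 motif in reverse. Mrpl58 (plus strand, chr11:115403652-115403751) held ETS motifs, the last of which runs on past the start. Mrps21 (minus strand, chr3:95871515-95871614) held an ERR motif. Mrpl36, Mrpl58 and Mrps21 were shown as genes among the 8 largest negative changes, and Mrpl32, chosen after its windows and values were seen, as an example of the NRF1 motif.
Mrpl32: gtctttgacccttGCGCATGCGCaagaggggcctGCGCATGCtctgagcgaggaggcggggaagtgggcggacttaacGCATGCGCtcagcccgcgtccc
Mrpl36: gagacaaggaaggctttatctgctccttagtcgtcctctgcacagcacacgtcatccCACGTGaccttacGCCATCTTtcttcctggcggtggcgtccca
Mrpl58: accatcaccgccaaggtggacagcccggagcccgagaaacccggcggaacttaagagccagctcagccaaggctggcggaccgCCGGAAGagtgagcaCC
Mrps21: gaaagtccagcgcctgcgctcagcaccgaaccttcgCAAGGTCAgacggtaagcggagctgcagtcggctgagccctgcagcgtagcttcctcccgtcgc

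YY1 and ETS motifs were the more frequent ones in these promoters. A gene was counted when any of its windows held the motif. The YY1 motif was found in 12 of the 65 genes (18.5%). It was found in 5.24% of 9163 genes tested on the arrays that had a window, and in 3.19% of all 27025 genes with a window. The ETS motif was found in 23 (35.4%), against 19.6% of tested genes and 9.93% of all. The NRF1 motif was in 7 (10.8%), against 5.87% and 3.05%, and 6 of the 7 were large-subunit genes. The E-box was in 4 (6.15%), against 11.5% and 8.09%, and the ERR motif in 2 (3.08%), against 1.45% and 1.76%. A match describes the letters of the window and does not show that a factor binds. Any of the 5 motifs was found in 38 of the 65 genes, and at least 2 kinds in 10.

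Genes with and without a motif were set side by side. The median change was -0.062 for the 12 genes with a YY1 motif and -0.049 for the 53 without, -0.020 for the 23 with an ETS motif and -0.061 for the 42 without, and 0.0052 for the 7 with an NRF1 motif and -0.056 for the 58 without. The 4 genes with an E-box had a median of -0.13 and the 61 without it -0.048. The 2 with an ERR motif had a median of -0.17, with 0 positive, and the 63 without it -0.048.

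A list of 12 tested genes joined factors that act on such promoters with Tfam, Tfb2m, Polrmt and Tefm, which act on mitochondrial DNA. Of the 12, 0 were called by limma and 8 were positive, with a median change of 0.15. The lowest p was that of Ppargc1b, a coactivator known to raise the expression of mitochondrial genes. It read 6.60, 6.46, 6.26 and 6.60 in RaptorKO samples, against 6.23, 5.69, 5.99 and 5.64 in WT samples. All RaptorKO samples lay above all WT samples, and the change of 0.59 (SE 0.14, limma adjusted p = 0.0609) was 0.57 in replicates 1 and 2 and 0.61 in replicates 3 and 4. Myc, a transcription factor that drives ribosome production, read 10.64, 10.82, 10.48 and 10.38 in RaptorKO samples, against 10.16, 10.25, 10.24 and 10.19 in WT samples. Its groups did not overlap either, with a change of 0.37 (SE 0.11, limma adjusted p = 0.138). Tfam, which packages mitochondrial DNA and starts its transcription, lay the other way. It read 6.93, 7.02, 6.71 and 6.94 in RaptorKO samples, against 7.14, 7.03, 7.17 and 7.13 in WT samples. All RaptorKO samples were below all WT samples, with a change of -0.22 (SE 0.10, limma adjusted p = 0.384).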

How the data were processed

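RNA of 8 samples, 4 RaptorKO and 4 WT, was measured on 1 single-channel array each after amplification from 12 ng, per the labels' protocols. For 45141 probe sets the authors deposited log2 intensities made with RMA, per the submitters' processing notes, which give no version. They were used without another normalization. Array medians ran from 5.21 to 5.29 and 75th percentiles from 6.67 to 6.80. Gene names came from the platform annotation, updated through Entrez identifiers to a RefSeq table of GRCm38.p6 (28689 of 28898 single-gene probe sets matched; 551 with several genes and 15692 with none were not used). The 11413 genes whose brightest probe set lay above the 40th percentile of at least 4 arrays were tested with limma 3.58.1 (lmFit and eBayes without covariates, R 4.3.3), with Benjamini-Hochberg adjustment over all of them. Tested on simulated data for this comparison, with 11413 genes, the fit called 97% of 100 genes set to a log2 change of 1.0 and 45% of 100 set to 0.5.

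Groups and replicate numbers came from the sample titles. No clear pairing of samples of the same number was seen. The correlations of their deviations from the group means were -0.153 to 0.157, and 2 of 4 were over 0.1. With 4 samples a group, such correlations cannot exclude pairing. The genes, gene lists, markers, motifs and sets of replicates were chosen with earlier results of these data known, so gene lists are described by counts and medians and were given no test. The named genes were Rptor, the 8 largest positive and 8 largest negative changes, genes whose groups did not overlap, Mrps18a, Mrps18b, Mrps18c, Mrpl12, Mrps30 and Mrps36, genes whose probe sets differed in sign, and the 2 lowest p of each related list. Others that are named, such as Tfam and those named by correlation, by sign in the sets of replicates or by level, were chosen after their values were seen. Alternatives were the replicate block, a term for the replicate set, each set alone, other normalizations, filters, probe set rules and variance models, array weights, and each sample left out. Python 3.11.15 with matplotlib 3.10.9 drew the figures.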

Additional observations from a re-analysis of the deposited data

Results flagged for a closer look

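In a group of 4 samples, 1 sample was taken to stand apart when its gap to the nearest other sample was a larger part of the group's range than Dixon's 95% critical value allows. Of 72 groups of values compared in this way, 3 were over it, which is no more than the about 1 in 20 that chance gives. All 3 were WT replicate 2. They are not separate, since Mrpl10 is a large-subunit gene and the large-subunit genes are among the 73. Mrpl10 read 6.60 in it, against 6.90 to 6.95 in the other WT samples, a gap of 0.861 of the range. The median of all 73 genes, centred on each gene's mean, was -0.087 in it, against 0.038 to 0.056 in the other WT samples, a gap of 0.874. The median of the large-subunit genes was -0.12 in it, against 0.035 to 0.045 in the others, a gap of 0.935. The same sample had the highest average of the CD8 T cell, B cell and NK cell markers, at 8.07, 6.66 and 4.77. Without WT replicate 2, the median change of the 73 genes was -0.076 with 24 positive. The part of those markers in this was not tested.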

How the results depend on the processing

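Under every alternative run, 0 of the 73 genes were called higher and 0 lower by limma. Over 22 alternatives, 33 named genes gave 726 values, of which 0 had an adjusted p under 0.05 and 51, in 19 genes, had the other sign; the lowest adjusted p was 0.0772, of Mrpl58 within replicates 3 and 4. What moved was the median change. It was 0.11 for all 73 genes, 0.085 for the large and 0.11 for the small subunit within replicates 1 and 2, with 53 genes positive, and -0.19, -0.18 and -0.20 within replicates 3 and 4, with 14 positive; the cause was not tested. With 1 sample left out at a time, it was -0.097 to 0.0068 for all genes, -0.13 to 0.0044 for the large and -0.095 to 0.011 for the small subunit, with 21 to 39 genes positive, and it was above 0 without RaptorKO replicate 3 alone. With array weights it was -0.085 with 22 positive, and with quantile normalization -0.032 with 32 positive. The replicate block left the median at -0.048 with 0 of the 73 genes called and a lowest adjusted p of 0.391; over all genes it gave 90 calls higher and 85 lower, against 94 and 130 without it, and 2 of 4 RaptorKO samples correlated best with the WT sample of their number. An intensity trend gave 147 and 223 over all genes, and the sets of replicates alone 9 and 85 in all. Without WT replicate 4, the fewest of the samples left out, there were 53 higher and 45 lower. With 4 arrays a group, a change of 0.5 on the log2 scale in 1 gene was called in 45% of simulated cases. In that simulation of independent genes, changes of that size in single genes were often below what this number of arrays detects.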
